A study of Arabidopsis thaliana with 18 samples.

Results

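The gibberellin oxidases are the enzymes that make and remove the bioactive gibberellins, and 10 of their Arabidopsis genes were examined for binding by complexes of the MADS-domain factor FRUITFULL (FUL). They are GA20OX1 (AT4G25420), GA20OX2 (AT5G51810) and GA20OX3 (AT5G07200), GA3OX1 (AT1G15550) and GA3OX2 (AT1G80340), and GA2OX1 (AT1G78440), GA2OX2 (AT1G30040), GA2OX4 (AT1G47990), GA2OX6 (AT1G02400) and GA2OX8 (AT4G21200). A peak was counted at a gene when it overlapped the TAIR10 gene or the 3 kb on either side by at least 1 bp. By this rule 10 of the 16105 peaks in the data lay at 6 of the 10 genes, and they joined into 6 of the 8081 nuclear sites at which peaks of 1 or more lists overlapped.

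The data come from DAP-seq, in which tagged protein made in vitro is mixed with a library of naked genomic DNA fragments and the fragments held by the protein are sequenced. There were 18 samples in 6 groups of 3 replicates. The mixtures were FUL-SOC1, FUL-AG-SEP3, FUL-AG, FUL-SEP3 and FUL alone, where SOC1, AG and SEP3 are other MADS-domain factors, and the last group was Input DNA without protein. Every mixture received 400 ng of library from Col-0 seedlings aged 2 weeks, labelled as leaf material, and no plant genotype or treatment differed between the groups. Only FUL carried the 3xFLAG tag, so a fragment held by FUL without a partner would be recovered from each mixture. The replicates of a mixture were combined before peaks were called, which left 1 list of peaks per mixture and none for Input. The lists held 4831 peaks for FUL-SOC1, 4457 for FUL-AG-SEP3, 2837 for FUL-AG, 1390 for FUL-SEP3 and 2590 for FUL. The lists hold no values per replicate and no read counts, so no value from them has a standard deviation, no difference between mixtures was tested, and the depth behind each list cannot be read from it. Naked DNA carries no nucleosomes, so a peak here is binding in vitro and no measure of expression.

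Gibberellins are hormones that promote germination, stem growth, flowering and fruit growth. GA20-oxidases and then GA3-oxidases carry out the closing steps to the bioactive forms, whereas GA2-oxidases inactivate bioactive gibberellins or their precursors. The bioactive forms bind GID1 receptors and lead to the breakdown of the DELLA repressors. MADS-domain factors such as FUL bind DNA as dimers and tetramers at the CArG-box, which is CC, then 6 bases that are each A or T, then GG. FUL acts in flowering and in the fruit valves, and GA3OX1 is a known target of the valve margin factor INDEHISCENT, whose gene FUL represses.

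The 6 sites are shown because they hold all 10 peaks that the rule finds at the oxidase genes. Each sequence is read 5′ to 3′ on the plus strand of TAIR10 and lies around the summit, the point of greatest enrichment of the highest peak. Capitals mark the box with the fewest mismatches to the CArG-box within 200 bp centred on the summit, and any further box with at most 1 mismatch in the peak.
GA20OX1 site, chr4:12989163-12989263: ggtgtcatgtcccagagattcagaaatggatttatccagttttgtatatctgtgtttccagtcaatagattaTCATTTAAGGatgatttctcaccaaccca
GA20OX3 site, chr5:2241824-2242003: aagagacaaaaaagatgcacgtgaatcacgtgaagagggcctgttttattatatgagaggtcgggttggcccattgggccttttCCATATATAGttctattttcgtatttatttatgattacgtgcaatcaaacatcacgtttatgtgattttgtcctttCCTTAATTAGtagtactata
GA3OX1 site, chr1:5347837-5348052: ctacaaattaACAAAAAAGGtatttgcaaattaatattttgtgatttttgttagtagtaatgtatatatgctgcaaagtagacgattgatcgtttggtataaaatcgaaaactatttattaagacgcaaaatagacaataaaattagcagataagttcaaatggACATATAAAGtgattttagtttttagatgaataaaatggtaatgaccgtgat
GA3OX2 site, chr1:30200695-30200857: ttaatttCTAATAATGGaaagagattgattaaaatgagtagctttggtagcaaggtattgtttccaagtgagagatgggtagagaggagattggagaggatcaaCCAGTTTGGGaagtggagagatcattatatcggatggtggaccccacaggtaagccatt
GA2OX4 site, chr1:17696696-17696796: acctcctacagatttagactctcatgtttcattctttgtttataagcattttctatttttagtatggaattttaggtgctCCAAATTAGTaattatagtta
GA2OX8 site, chr4:11305448-11305548: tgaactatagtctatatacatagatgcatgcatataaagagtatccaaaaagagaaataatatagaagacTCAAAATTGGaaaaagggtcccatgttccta
None of the 6 sequences held a box that matched at all 10 positions. The boxes at GA20OX1, GA20OX3, GA2OX4 and GA2OX8 had 1 mismatch, and those nearest the summits at GA3OX1 and GA3OX2 had 2.

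Peaks lay downstream of 2 genes, upstream of 2 and inside 2, and none lay within 1 kb upstream of a start of transcription. The map of the 10 loci places every peak against its gene. In FUL-SOC1, 3 of the 10 oxidase genes had a peak, against 28.7% of all 27444 nuclear protein-coding genes. In FUL-AG-SEP3, 2 had one, against 27.1% of all genes. In FUL-AG, 1 had one, against 18.1%, in FUL-SEP3 2 had one, against 9.22%, and in FUL 2 had one, against 17.0%. With any of the 5 lists, 6 of the 10 had a peak, or 60% (95% Wilson interval 31.3% to 83.2%), against 43.9% of all genes. The share of all genes lay inside the Wilson interval of the oxidase genes in each of the 5 lists and for any list, so the oxidase genes were not distinguishable from genes in general at this number of members. The intervals cover counting error only. The oxidase genes had a median length of 1919.5 bp, against 2078 bp over all protein-coding genes, so the windows searched were of like size.

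**Figure D1:**
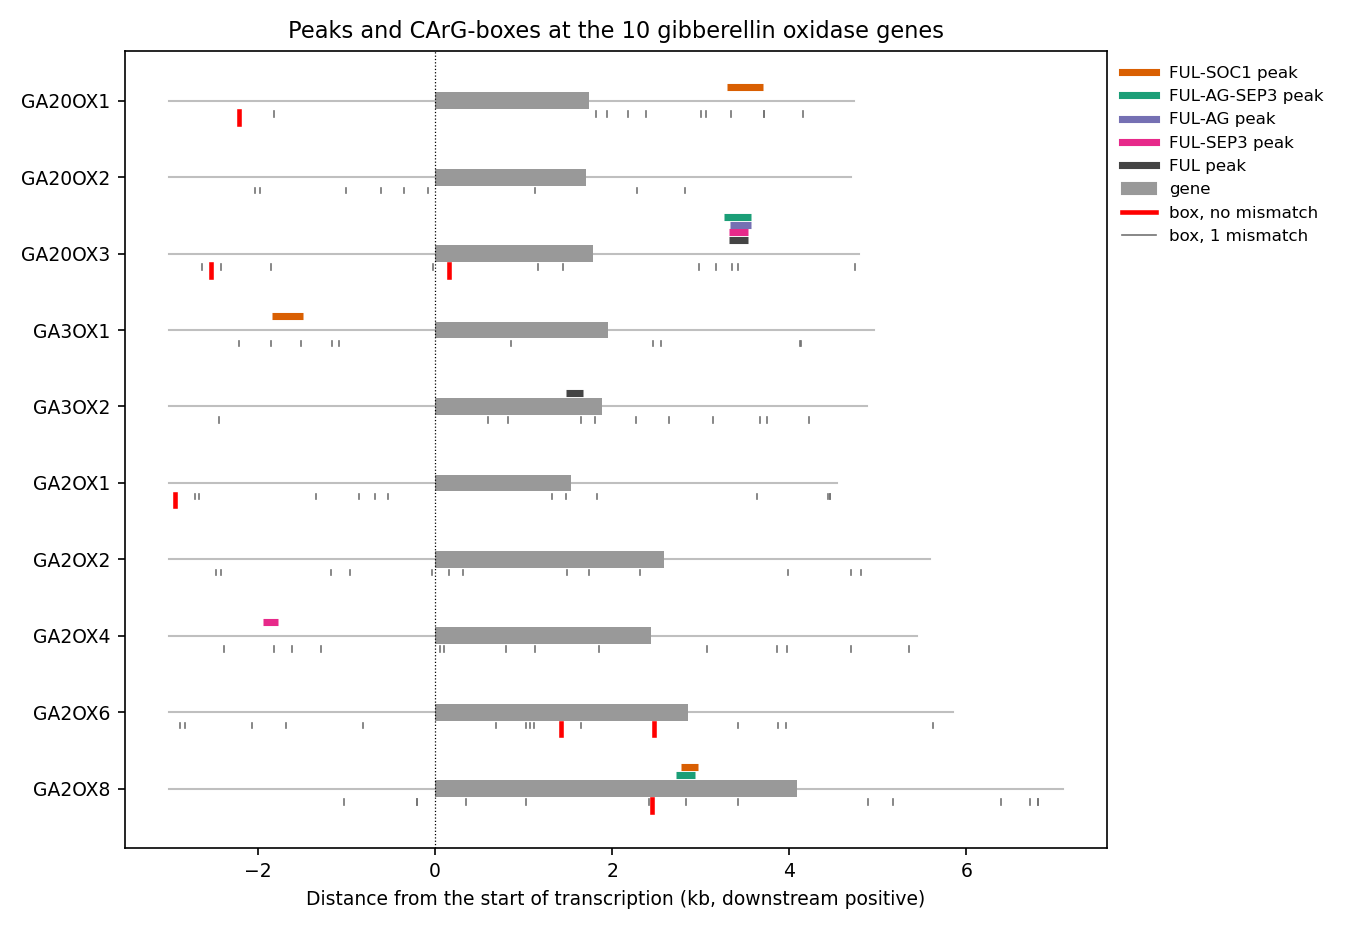
The 10 gibberellin oxidase genes are aligned at their start of transcription, with distance in kb along the axis and transcription running to the right. Coloured bars are peaks, 1 colour per list, grey boxes are genes, red ticks are CArG-boxes without a mismatch and thin ticks are boxes with 1 mismatch. The 10 peaks lie at 6 genes and none covers a red tick.

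**Figure D2:**
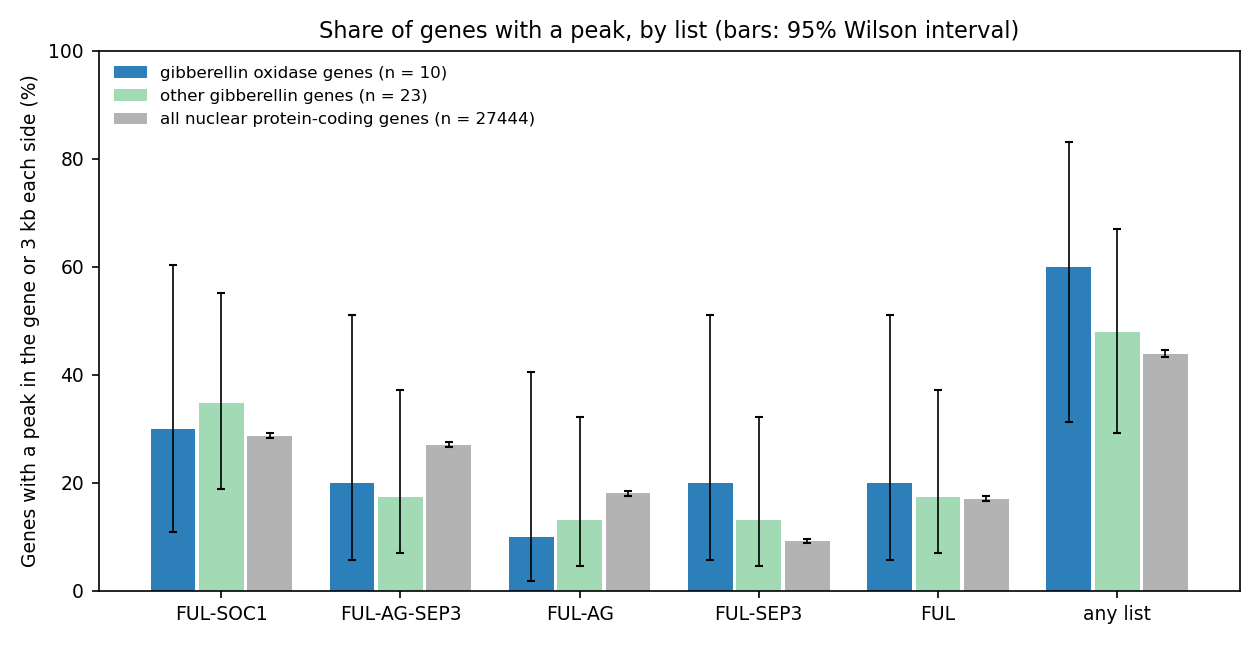
Bars give the percentage of genes with a peak in the gene or the 3 kb on each side, for each list and for any list, with lines for the 95% Wilson interval. Blue is the 10 gibberellin oxidase genes, green the 23 other gibberellin genes and grey the 27444 nuclear protein-coding genes. Every grey bar ends inside the interval of the blue bar beside it.

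The 6 sites differed in the lists that held them. The GA20OX3 site was in 4 lists, the GA2OX8 site in 2, and the other 4 sites in 1 list each. Over all 8081 sites, 51.3% were in 1 list, 20.5% in 2 and 8.28% in 4. The GA20OX1 and GA3OX1 sites were in the FUL-SOC1 list alone, the most frequent pattern in the data with 27.3% of all sites. The GA3OX2 site was in the FUL list alone, as were 7.28% of all sites, and the GA2OX8 site was shared by FUL-SOC1 and FUL-AG-SEP3, as were 6.61%. The GA2OX4 site was in the FUL-SEP3 list alone, as were 68 of all 8081 sites (0.841%), the least frequent of the patterns at the oxidase genes, and FUL-SEP3 is also the shortest list. The GA20OX3 site had a peak with FUL-AG-SEP3, FUL-AG, FUL-SEP3 and FUL but none with FUL-SOC1, a pattern of 1.97% of all sites. No site at an oxidase gene was in all 5 lists, as 6.31% of all sites were. A list without a peak says only that no peak was called there, since the signal below the threshold was not analysed here.

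Of the GA20-oxidases, GA20OX1 and GA20OX3 had peaks and GA20OX2 had none. GA20OX1 is the isoform best known for stem elongation. The gene lies on the minus strand at chr4:12990851-12992585. Its single peak, with FUL-SOC1 at chr4:12988881-12989292, was intergenic, and the summit lay 1638 bp beyond the 3′ end of the gene. The fold enrichment, the pileup of fragments at the summit over the local background, was 2.88, with a -log10 p of 6.86 and a -log10 q of 4.39. It was a weak peak in its list, in which 62.9% of peaks had a higher fold. GA20OX1 was also the gene with the nearest start of transcription. The box TCATTTAAGG lay 26.5 bp from the summit and had A or T at 5 of the 6 flanking bases, 3 on each side.

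GA20OX3, which overlaps in function with GA20OX1 and GA20OX2, had the site found in the most lists. The gene lies on the minus strand at chr5:2243553-2245339, and the site, at chr5:2241765-2242079, was intergenic beyond its 3′ end. The summit of the highest peak lay 1679 bp from the gene, and no other gene had a nearer start. The peak had a fold of 3.39 with FUL-AG-SEP3 and a -log10 p of 9.84. With FUL-AG the fold was 3.51 and the -log10 p 10.05. With FUL-SEP3 the fold was 3.89 and the -log10 p 10.4. With FUL alone the fold was 3.95 and the -log10 p 12.7. The peak was of middle rank in all 4 lists, since 34.3% of FUL-AG-SEP3 peaks, 33.2% of FUL-AG peaks, 45.3% of FUL-SEP3 peaks and 48.2% of FUL peaks had a higher fold. The 4 summits lay within 45 bp of each other. The boxes CCATATATAG and CCTTAATTAG, each with 1 mismatch, started 76 bp apart and both lay under all 4 peaks. FUL-SOC1 had its nearest peak to GA20OX3 4383 bp beyond the 3′ end, with a fold of 2.74, nearest to the start of ATS3, and that peak is a different site.

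GA20OX2, which acts with GA20OX1 in the floral transition, lies on the minus strand at chr5:21055179-21056881. No list had a peak in the gene or the 3 kb on each side. The nearest peaks lay upstream and outside the rule, at 4582 bp with FUL-AG, 4611 bp with FUL-SEP3 and 4557 bp with FUL. The fold there was 3.29 with FUL-AG, 3.59 with FUL-SEP3 and 5.33 with FUL, and 21.5% of FUL peaks had a higher fold. The nearest start to these peaks was that of AT5G07845. With FUL-AG-SEP3 the nearest peak was 9887 bp away and with FUL-SOC1 47845 bp.

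Both GA3-oxidases had a single peak, each with another mixture and on another side of the start. GA3OX1, the main isoform of vegetative growth, lies on the minus strand at chr1:5344388-5346342. Its FUL-SOC1 peak at chr1:5347835-5348182 was intergenic with a summit 1660 bp upstream of the start, and GA3OX1 had the nearest start. The fold was 2.74, the -log10 p 5.86 and the -log10 q 3.56, and 72.8% of FUL-SOC1 peaks had a higher fold. It had the smallest -log10 p of the 10 peaks. The box at the summit, ACATATAAAG, had 2 mismatches and was 3.5 bp from it, and the box ACAAAAAAGG, with 1 mismatch, started 154 bp away near the edge of the peak. The other lists had peaks only far from GA3OX1, the nearest being 19650 bp away with FUL-AG-SEP3, 24691 bp with FUL-AG, 19625 bp with FUL-SEP3 and 19644 bp with FUL.

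GA3OX2, which is active in germinating seeds, lies on the minus strand at chr1:30200466-30202349. Its peak at chr1:30200679-30200874 was in the FUL list only. The summit lay in a coding exon, 1542 bp after the start. The fold was 3.19 and the -log10 p 8.31, and 79.6% of FUL peaks had a higher fold. The peak lay nearer to another gibberellin oxidase gene's start, since GA3OX4 (AT1G80330) starts 1270 bp from the summit and runs away from it. The box at the summit, CCAGTTTGGG, had 2 mismatches, and CTAATAATGG, with 1 mismatch, started 97 bp away. The nearest FUL-AG peak lay 4098 bp upstream in an intron of ERH3, with a fold of 2.73, and the nearest FUL-SEP3 peak was 111624 bp away.

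Of the 5 GA2-oxidases, GA2OX4 and GA2OX8 had a peak. GA2OX4, which is expressed at the base of the shoot meristem, lies on the plus strand at chr1:17698598-17701041. Its peak at chr1:17696650-17696827, with FUL-SEP3 only, was intergenic with a summit 1852 bp upstream of the start. This was the strongest of the 10 peaks in its own list, with a fold of 4.58, a -log10 p of 14.6 and 22.9% of FUL-SEP3 peaks higher. The nearest start, 897 bp from the summit, was that of the noncoding RNA gene AT1G07463. The box CCAAATTAGT, with 1 mismatch, lay 34.5 bp from the summit. The other 4 mixtures had a peak on the other side of the gene, outside the rule and in an intron of MYB112. It began 4021 bp beyond the 3′ end of GA2OX4 with FUL-SOC1, 4006 bp with FUL-AG-SEP3, 4014 bp with FUL-AG and 3963 bp with FUL. Its fold was 3.28 with FUL-SOC1, 3.76 with FUL-AG-SEP3, 3.88 with FUL-AG and 3.59 with FUL. Of the peaks inside the rule, the one farthest from its gene was the FUL-SEP3 peak, whose edge was 1771 bp away, and the nearest outside it was the FUL peak at 3963 bp.

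GA2OX8, which acts on gibberellin precursors rather than on the bioactive forms, lies on the plus strand at chr4:11302682-11306770. Its site was in an intron and was found with FUL-SOC1 at chr4:11305456-11305654 and with FUL-AG-SEP3 at chr4:11305405-11305617. The fold was 3.01 with FUL-SOC1, where 52.6% of peaks were higher, and 3.02 with FUL-AG-SEP3, where 56.9% were higher. The summits lay 5 bp apart, 2821 bp after the start with FUL-SOC1 and 2816 bp with FUL-AG-SEP3. The next gene, RP1 (AT4G21210), had the nearest start, 1447 bp away. The box TCAAAATTGG had 1 mismatch and lay 24.5 bp from the summit. The nearest peak to the gene was 79410 bp away in FUL-AG, 130369 bp in FUL-SEP3 and 52597 bp in FUL.

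GA2OX1, GA2OX2 and GA2OX6 had no peak in any list. GA2OX6, which in Arabidopsis embryos is a target of the MADS-domain factor AGL15, lies on the plus strand at chr1:486800-489651 and had its nearest peaks 6903 bp away with FUL-SOC1 and 7302 bp away with FUL. GA2OX1, on the minus strand at chr1:29511561-29513100, lay 22034 bp or more from the peaks of all 5 lists. GA2OX2, on the plus strand at chr1:10537457-10540044, lay at least 26382 bp from them. These 2 genes were the farthest from any peak among the 10.

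**Figure D3:**
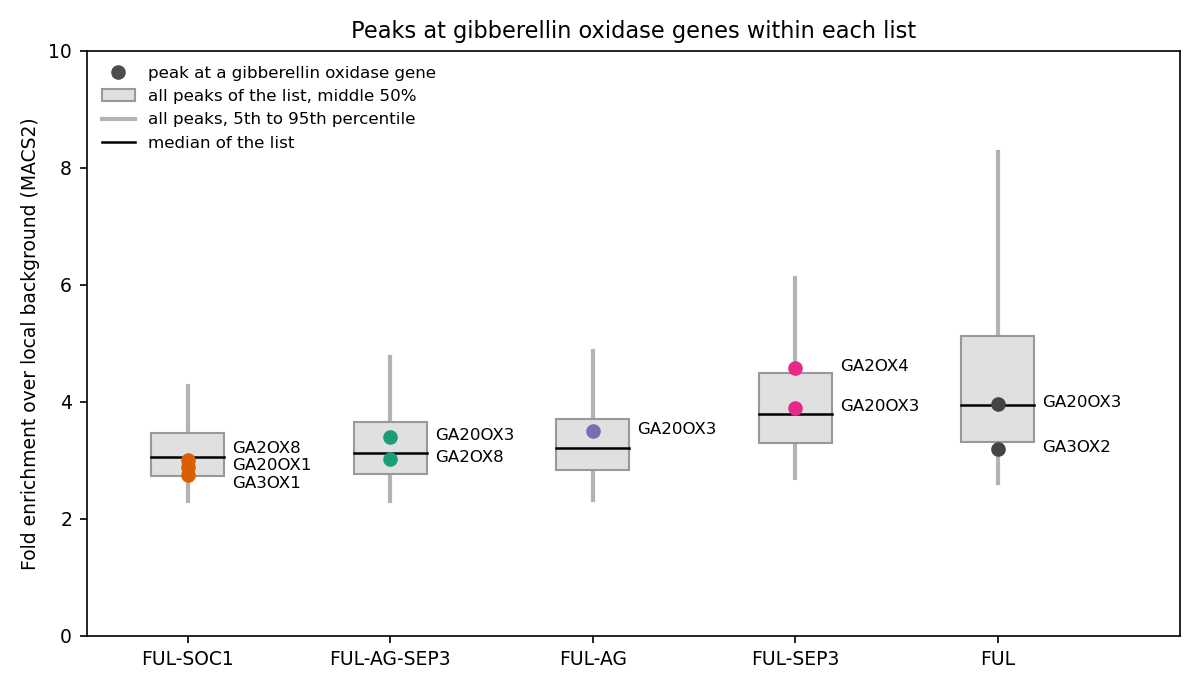
Points are the 10 peaks at gibberellin oxidase genes, placed by fold enrichment over the local background within the list of each mixture. Grey boxes hold the middle 50% of the peaks of a list, grey lines run from the 5th to the 95th percentile and black lines are medians. GA2OX4 with FUL-SEP3, at 4.58, stands above its box, and GA3OX2 with FUL, at 3.19, below its box.

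Within their lists, 5 of the 10 peaks at oxidase genes were above the median fold of the list and 5 below it. These peaks are not independent. The GA20OX3 site gave a peak in 4 lists, all above the median, and the GA2OX8 site in 2, both below. The median fold was 3.06 over all FUL-SOC1 peaks, and the GA2OX8, GA20OX1 and GA3OX1 peaks in that list, at 3.01, 2.88 and 2.74, were all under it. In FUL-AG-SEP3, where the median was 3.12, GA20OX3 was above it and GA2OX8 below. In FUL-AG, with a median of 3.21, the GA20OX3 peak was above it. Both FUL-SEP3 peaks were above the median of 3.79. In FUL, with a median of 3.95, GA20OX3 was just above it and GA3OX2 below. None of the 10 peaks was among the highest 20% of its list by fold.

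Boxes with at most 1 mismatch lay under a peak at the 10 loci about as often as over the genome. In the genes and their 3 kb flanks, 127 boxes had at most 1 mismatch, and 7 of them, or 5.51%, lay under a peak. Over the nuclear genome 10344 of 163951 such boxes did, or 6.31%. Boxes without a mismatch numbered 7 at the oxidase genes, and 0 of them lay under a peak, against 1284 of 7741, or 16.6%, over the genome, so most full matches in the genome lay under no peak and 7 boxes are too few to tell the oxidase genes apart. These 7 boxes are shown, in capitals with 10 bases on each side on the plus strand, as the full matches of the 10 loci, to set beside the boxes with mismatches under the peaks.
GA20OX1 box, chr4:12994785-12994814: caatgctggaCCTATAAAGGacaaccatta
GA20OX3 box, chr5:2245169-2245198: tatcgtagatCCTTTTAAGGcgtaaaagat
GA20OX3 box, chr5:2247858-2247887: aattccaacgCCAAATTTGGttggaaagaa
GA2OX1 box, chr1:29516029-29516058: cgaagatgggCCAATTTTGGgccttaaaga
GA2OX6 box, chr1:488204-488233: ttaaaaaatcCCTAATTTGGtggcatatag
GA2OX6 box, chr1:489259-489288: atcaccgttgCCAAAAATGGtgtcgccgga
GA2OX8 box, chr4:11305118-11305147: aatgcaaatgCCTAAAAAGGctaaaacaca
Of these boxes, that at GA2OX8 lay nearest to a peak, 268 bp from the FUL-AG-SEP3 peak. Both this box and the summit of that peak were intronic. The GA20OX1 box lay 2214 bp upstream of the start and 1942 bp from the nearest peak, the FUL-SOC1 peak listed outside the rule. The GA20OX3 boxes lay 156 bp after the start, in an untranslated exon, and 2533 bp upstream of it, and were 3100 bp and 5789 bp from a peak. The GA2OX1 box lay 2943 bp upstream and was 19086 bp from a peak. The GA2OX6 boxes lay in an intron and in a coding exon, 8317 bp and 7675 bp from a peak. The 6 genes with a peak held 75 boxes with at most 1 mismatch and 4 without one, and the 4 genes without a peak held 52 and 3. GA2OX6 alone, without a peak, had 16 boxes with at most 1 mismatch, the most of the 10 genes, and GA20OX2 had 9, the fewest.

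Around the summits, 4 of the 6 sites had a box with at most 1 mismatch within the 200 bp window, against 5454 of all 8081 sites (67.5%) and 1781 (22.0%) of control windows 1000 bp to the right of the summits. For boxes without a mismatch the numbers were 0 of 6 sites, 1058 of all 8081 sites (13.1%) and 81 of 8081 control windows. With up to 2 mismatches all 6 sites had a box, but so did 99.4% of all sites and 88.5% of control windows, so such a box carries little information. The best box lay a median of 25.5 bp from the summit at the 6 sites and 14.5 bp over all sites. A or T filled a median of 4 of the 6 flanking bases at the 6 sites and 5 over all sites. With 6 sites, these numbers are a description only. None of the 6 sites had a second copy in the genome at 90% identity or more over 50% of its length.

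Of 23 other gibberellin genes, 11 had a peak in any list, or 47.8%, beside 43.9% of all genes. The other oxidases had peaks at 3 of 6 genes, GA20OX4, GA3OX3 and GA3OX4, the last being the GA3OX2 peak. The early enzymes of the pathway had peaks at 3 of 5, the methyltransferases at 0 of 2 and the receptors at 1 of 3. The DELLA repressors had peaks at 3 of 5 and the F-box proteins that target them at 1 of 2. Among the early enzymes, KS (AT1G79460) was counted by a peak whose summit lay 3090 bp beyond its 3′ end. That summit was in an untranslated exon of AT1G79480 and nearest to the start of AT1G79470. Genes with a peak in 3 or more lists were GAI, RGL1 and GID1A, along with GA20OX3 among the 10. The share of all genes that meet this rule is not given here, so these genes are named as a description only. GAI, a DELLA repressor, had a site in all 5 lists 696 bp upstream of its start, with folds of 4.94 in FUL-SOC1, 5.62 in FUL-AG-SEP3, 4.20 in FUL-AG, 8.24 in FUL-SEP3 and 11.7 in FUL. RGL1, another DELLA, had a site 953 bp beyond its 3′ end in the same 4 lists as GA20OX3. The summit lay 3034 bp after the RGL1 start, and AT1G66360 had a nearer start, 171 bp away. The folds at the RGL1 site were 4.93 in FUL-AG-SEP3, 4.04 in FUL-AG, 4.88 in FUL-SEP3 and 7.16 in FUL. The RGL2 peak, in FUL-AG alone, lay in an intron of AT3G03440, 2893 bp beyond the 3′ end of RGL2. GID1A, a receptor, had a site 614 bp upstream with folds of 2.74 in FUL-SOC1, 3.73 in FUL-AG-SEP3, 3.79 in FUL-SEP3 and 3.80 in FUL. Another GID1A site, in FUL alone with a fold of 2.76, lay 389 bp beyond the 3′ end, nearest to the start of AT3G05130. At GA20OX3 the folds of 3.39 to 3.95 were below those of RGL1 in each of the 4 lists they share.

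**Figure D4:**
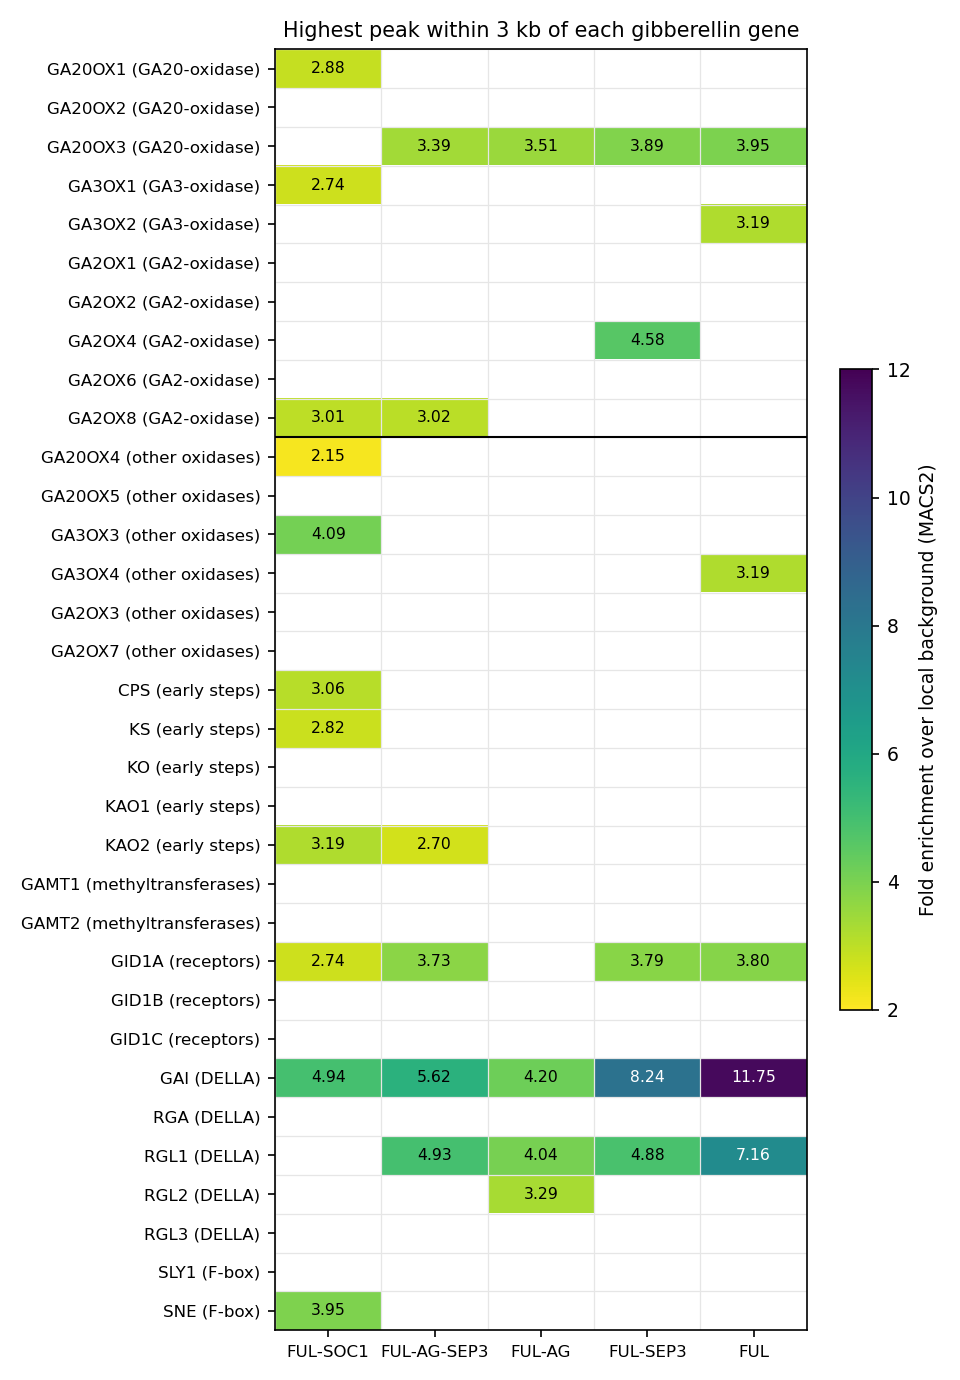
Each row is a gibberellin gene, the 10 oxidase genes above the black line and the 23 other genes below it, and each column is the list of 1 mixture. Colour and number give the highest fold enrichment of a peak in the gene or the 3 kb on each side, and white cells have no peak. Among the oxidase genes GA20OX3 fills 4 columns, GA2OX8 2 and GA20OX1, GA3OX1, GA3OX2 and GA2OX4 1 each.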

How the data were processed

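DAP-seq was performed on FUL-SOC1, FUL-AG-SEP3, FUL-AG, FUL-SEP3, FUL and Input, 3 replicates each. Reads were trimmed by the authors (Trim Galore) and aligned to the TAIR10 genome (HISAT2), and narrow peaks were called on the combined replicates with MACS2, with Input as the control. Versions are not given in the sources used here. The fold enrichment in the deposited lists is a ratio of the pileup to the local background. The -log10 p-values and -log10 q-values are those MACS2 gave the authors, and every deposited q-value is below 0.05. The deposited score is 10 times -log10 q, rounded down, in all peaks and was not used. Signal tracks were not used here.

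Peaks were set against the gene spans of the RefSeq annotation of TAIR10.1, from which the printed sequences also come. No nuclear peak ran past a chromosome end of that assembly. Peaks of different lists were joined when they overlapped by 1 bp. Sites were scored by mismatches to the CArG-box, which is the same on both strands, in 200 bp around the summit of the highest peak. Mitochondrial peaks were left out of sites and genes. The text names all 10 genes, the genes under or nearest a summit at one of them, and other gibberellin genes with peaks in 3 or more lists. The other oxidase genes with a peak, and the genes at or nearest to peaks between 3 and 5 kb from the 10 genes, were named after their values were seen. So were KS, RGL2 and the genes at or nearest to the peaks of KS, RGL1, RGL2 and GID1A. The members and lists were chosen with earlier results of these data known. Counting, joining and scoring were tested on simulated data. Flanks of 1, 2 and 5 kb, stricter thresholds, the nearest start, other joins and other box windows were tried. Since each list is a single pooled set with no values per replicate, no test was made. BLAST 2.17.0 searched for copies, and the rest ran in Python 3.11.15 with SciPy 1.17.1, NumPy 2.4.6 and Matplotlib 3.10.9.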

Additional observations from a re-analysis of the deposited data

How the results depend on the processing

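The number of oxidase genes with a peak depended on the flank. With 1 kb in place of 3 kb it was 1 for FUL-SOC1, 1 for FUL-AG-SEP3, 0 for FUL-AG, 0 for FUL-SEP3, 1 for FUL and 2 for any list, and with 5 kb it was 5 for FUL-SOC1, 4 for FUL-AG and 4 for FUL. When a list was cut to its 1000 best peaks by p, the number was 0 for FUL-SOC1, 0 for FUL-AG-SEP3, 0 for FUL-AG, 0 for FUL and 2 for any list. This leaves GA20OX3 and GA2OX4, both through FUL-SEP3. The cut removed least from FUL-SEP3, which held 1390 peaks, against 4831 in FUL-SOC1. By p, GA20OX3 ranked 739 of 1390 in FUL-SEP3 and passed, but 1123 of 2837 in FUL-AG and did not. When each peak went to the gene with the nearest start, the number was 1 for FUL-AG-SEP3, 1 for FUL-SEP3, 1 for FUL and 3 for any list, namely GA20OX1, GA20OX3 and GA3OX1. The share of all genes under these other flanks, cuts and assignments is not given here. It would change with them too, so these counts cannot be set against genes in general. No site had a box without a mismatch, so the count of 4 sites with a box became 0. The other alternatives, among them a 2 kb flank, summits inside the window, a -log10 q of at least 4 and all nuclear genes as the background, kept each count within 1.5 times. No paired analysis was possible because the lists combine the replicates, and for the same reason no replicate could be left out. The lists give no depth, so a missing peak may lie below what the reads could show.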

Other observations

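The motif CACGTG, the G-box, was searched after the sequences had been read. It lay in the 200 bp around the summit at 1 of the 6 oxidase sites, that of GA20OX3, and at 205 of all 8081 sites (2.54%). The motif is its own reverse complement and at GA20OX3 did not overlap the CArG-box matches. This is a description of the sequence, chosen for what was seen in it. The FUL-SOC1 list also had a peak 4161 bp upstream of GA20OX1, nearest to the start of TRM23, with a fold of 2.87, close to the 2.88 of the peak beyond the 3′ end of the same gene.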
